A study of Homo sapiens with 6 samples.

Results

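The genes described here are COL1A1, COL3A1, COL5A1, COL5A2 and COL5A3, which encode chains of fibrillar collagens, and COL12A1 and COL14A1, which encode fibril-associated collagens. They were chosen by gene symbol, with earlier results of these data known, and make up 7 of the 19469 genes in the count table. All 7 had a row in the table and all 7 passed the filter on low counts, which removed no gene in the comparison over 5 libraries described below. RNA was sequenced from L3.6pl, an established line of human pancreatic cancer cells whose samples are also annotated as pancreatic adenosquamous carcinoma. The cells were sorted by FACS for surface L1CAM, a neural adhesion molecule, into L1CAM-positive (L1high) and L1CAM-negative (L1low) cells, with 3 libraries from each population. Neither population carried an engineered allele or received a treatment, and both came from cultures in DMEM with serum and antibiotics. The comparison asked how the transcripts of the L1low population differ from those of the L1high population.

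The populations come from 1 cell line, and nothing says of these libraries in particular that the replicates came from separate cultures, although the study's methods speak in general of independent repeats. The p-values thus measure the spread between these libraries, which may be technical. The cell line is spelled L6.6pl in the annotation and L3.6PL in the titles of the same samples. Between 16334610 and 21064685 reads per library were assigned to genes. The sorting marker L1CAM was at 81.1 ± 10.2 CPM (read counts scaled to the library total, SD, n = 3) in L1high and 20.5 ± 3.01 CPM (n = 3) in L1low cells. The study's own comparison left out L1high replicate 3 and gave no reason, so fold changes are given over the other 5 libraries first and over all 6 beside them. A positive log2 fold change means more in L1low cells.

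Fibrillar collagens are trimers of chains that wind around each other into a long triple helix, in which glycine recurs at a fixed interval. After secretion the ends of the trimer are cut off and the molecules pack into fibrils, with type I as the bulk of most fibrils, type III alongside it in soft tissues, and type V at the core, where it helps to start the fibril and limits its width. Types XII and XIV do not form fibrils of their own but lie on the surface of type I fibrils and connect them with the surrounding matrix. In pancreatic tumours most fibrillar collagen is known to come from fibroblasts and stellate cells, while the epithelial cancer cells make a smaller part.

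The repeat of glycine can be read in the genes themselves. The 5 fibrillar genes each had internal exons with a median length of 54 bases, a length that fits whole units of the glycine repeat, against medians of 138 bases in COL12A1 and 128.5 bases in COL14A1. Exons of exactly 54 bases with glycine codons at that interval throughout numbered 21 in COL1A1, 24 in COL3A1, 29 in COL5A1, 24 in COL5A2, 31 in COL5A3 and 4 in COL12A1. COL14A1 was not searched. The 5 exons below, from GRCh38, show the closest matches among such exons. Glycine codons are in capitals, and each exon is read 5′ to 3′ on the gene's strand.
COL5A1 exon 18: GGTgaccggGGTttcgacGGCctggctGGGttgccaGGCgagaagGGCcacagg
COL5A3 exon 18: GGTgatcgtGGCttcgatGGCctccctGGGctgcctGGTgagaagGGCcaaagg
COL5A2 exon 13: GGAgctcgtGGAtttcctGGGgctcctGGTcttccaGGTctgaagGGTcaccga
COL1A1 exon 11: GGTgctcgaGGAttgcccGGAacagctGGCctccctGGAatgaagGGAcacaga
COL3A1 exon 10: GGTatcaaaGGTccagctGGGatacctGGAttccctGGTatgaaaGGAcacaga
These exons lie at chr9:134758243-134758296 on the plus strand for COL5A1, chr19:9993619-9993672 on the minus strand for COL5A3, chr2:189080990-189081043 on the minus strand for COL5A2, chr17:50197010-50197063 on the minus strand for COL1A1 and chr2:188990307-188990360 on the plus strand for COL3A1. They were chosen as the COL5A1 and COL5A3 pair with most equal bases and the best match to that COL5A1 exon in each other gene. The letters GG of every glycine codon are equal in all of them by this choice, and other exons are less alike or no more alike. The COL5A3 exon equals the COL5A1 exon at 44 of 54 bases (81.5%), and the other chains equal it at 31 to 34 bases. No stretch of 50 bases of any member's canonical transcript occurred in the same orientation in a transcript of another gene. Exact matches of that length and orientation are thus not shared between these genes. The reverse complement was not searched, so antisense transcripts are not covered. No gene that overlaps a member had a row in the count table.

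In L1low cells 4 of the 7 genes were higher and 1 was lower. COL14A1, COL5A1, COL12A1 and COL5A2 rose 2.79-fold, 2.33-fold, 2.06-fold and 1.60-fold. COL5A3, for the α3 chain of collagen V, fell 6.20-fold, while COL1A1 and COL3A1 did not pass the test. Every gene of the count table had over 1 CPM in 2 or more libraries. COL5A3 met this only through its L1high libraries, so its place in the table rests on the group where it is high. Over the 5 libraries the edgeR quasi-likelihood test called 7.57% of all genes at an adjusted p under 0.05, 4.41% higher and 3.15% lower. Over all 6 libraries the same 5 members passed in the same directions, against 7.95% of all genes, 4.58% higher and 3.37% lower. For the same 5 members the 3 L1low values lay entirely above or below the 3 L1high values, 4 higher and 1 lower, as they did for 28.8% of all genes, 15.2% higher and 13.7% lower.

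**Figure D1:**
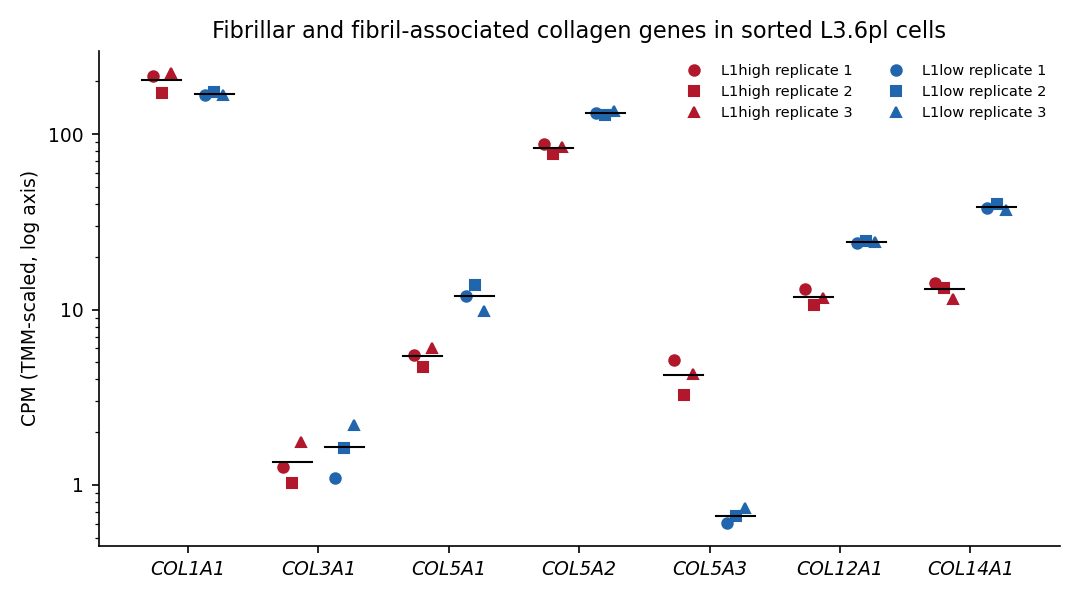
CPM (TMM-scaled, log axis) of each gene in the 3 L1high (red) and 3 L1low (blue) libraries, with a marker shape for each replicate and the group mean as a black bar. COL5A3 is the gene whose L1low libraries lie far below the L1high ones, and the COL1A1 and COL3A1 libraries overlap.

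COL14A1, on chromosome 8 (GRCh38, 120059780 to 120373573, plus strand), encodes the chain of collagen XIV, which binds to the fibril surface and takes part in spacing the fibrils of tendon and skin. It had 302, 274 and 189 reads in the L1high libraries, given here and below in the order of replicates 1, 2 and 3, and 686, 718 and 656 reads in the L1low libraries. Scaled to library size, the L1high libraries held 14.2, 13.3 and 11.5 CPM and the L1low libraries 37.8, 40.0 and 37.0 CPM. Every L1low library was far above every L1high library, and the 3 L1low values were close together. The log2 fold change was 1.48 ± 0.11 (SE), with a 95% interval of 1.25 to 1.71 (edgeR adjusted p = 5.5e-06), and 1.55 over all 6 libraries (edgeR adjusted p = 4.9e-06).

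COL12A1, on chromosome 6 (75084326 to 75206267, minus strand), encodes collagen XII, the other surface collagen, found where tissue bears load and in the stroma of tumours. L1high replicates 1, 2 and 3 held 276, 218 and 192 reads, or 13.0, 10.6 and 11.7 CPM. The L1low replicates held 436, 441 and 428 reads, or 24.0, 24.6 and 24.2 CPM. The L1low libraries were nearly equal to each other and none overlapped with L1high. Its log2 fold change was 1.05 ± 0.12 (SE), with a 95% interval of 0.78 to 1.31 (edgeR adjusted p = 2.2e-04), and 1.04 over all 6 libraries (edgeR adjusted p = 9.7e-05).

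The collagen V chains did not move together. Collagen V is found mostly as a trimer of α1(V) and α2(V) chains, and the α3(V) chain joins both of them in a rarer form known from placenta, muscle and a few other tissues. COL5A1, on chromosome 9 (134641803 to 134844843, plus strand), encodes α1(V), which no collagen V trimer lacks. Its reads were 117, 97 and 99 in the L1high replicates and 218, 247 and 174 in the L1low replicates. Scaled to library size these were 5.52, 4.72 and 6.03 CPM against 12.0, 13.8 and 9.83 CPM. The L1low libraries were spread more widely than the L1high ones, with replicate 3 the lowest, but the groups did not overlap. The log2 fold change was 1.22 ± 0.18 (SE), with a 95% interval of 0.84 to 1.60 (edgeR adjusted p = 0.0011), and 1.13 over all 6 libraries (edgeR adjusted p = 0.0010).

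COL5A2, on chromosome 2 (189031898 to 189225312, minus strand), encodes α2(V), and was the most abundant of the 3 chains in every library. It had 1874, 1588 and 1389 reads in L1high and 2393, 2301 and 2384 reads in L1low cells. The corresponding levels were 88.3, 77.3 and 84.6 CPM in L1high and 132, 128 and 135 CPM in L1low. The groups were clearly apart, with the smallest rise of the 4 genes that rose. This gave a log2 fold change of 0.68 ± 0.08 (SE), with a 95% interval of 0.49 to 0.86 (edgeR adjusted p = 3.3e-04), and 0.66 over all 6 libraries (edgeR adjusted p = 1.7e-04).

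COL5A3, on chromosome 19 (9959561 to 10010504, minus strand), encodes α3(V), and changed in the opposite direction. Its reads fell from 109, 67 and 70 in the L1high replicates to 11, 12 and 13 in the L1low replicates. L1high libraries held 5.14, 3.26 and 4.26 CPM and L1low libraries 0.605, 0.669 and 0.734 CPM. The 3 L1low libraries were nearly equal and all below the lowest L1high library, replicate 2. Every gene of the count table had over 1 CPM in 2 or more libraries, and COL5A3 met this only through its L1high libraries. Its L1low values were below that level. On the log2 scale the change was -2.63 ± 0.30 (SE), with a 95% interval of -3.29 to -1.97 (edgeR adjusted p = 1.8e-04), and -2.65 over all 6 libraries (edgeR adjusted p = 8.8e-05).

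COL1A1, on chromosome 17 (50184101 to 50201632, minus strand), encodes the α1 chain of collagen I, the main collagen of bone, skin and scar. It had 4518, 3512 and 3647 reads in L1high and 3033, 3126 and 2968 reads in L1low cells. The levels were 213, 171 and 222 CPM in L1high and 167, 174 and 168 CPM in L1low. L1high replicate 2 lay among the L1low libraries and the other 2 L1high libraries lay above them, so the groups overlapped. The log2 fold change was -0.17 ± 0.09 (SE), with a 95% interval of -0.37 to 0.03 (edgeR adjusted p = 0.29), and -0.25 with an interval of -0.45 to -0.05 over all 6 libraries (edgeR adjusted p = 0.12). Of 17 alternatives it passed the test in 1, where L1high replicate 3 took the place of replicate 2, with -0.36 (edgeR adjusted p = 0.0064). Without L1high replicate 1 the value was -0.0039 (edgeR adjusted p = 0.98). COL1A2, which encodes the other chain of collagen I, had no row in the count table.

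COL3A1, on chromosome 2 (188974373 to 189012746, plus strand), encodes the chain of collagen III. It lies next to COL5A2 with 19151 bases between them, on the opposite strand. It was near the lower limit of what the table holds, with 27, 21 and 29 reads in L1high and 20, 29 and 39 reads in L1low cells. These are 1.27, 1.02 and 1.77 CPM against 1.10, 1.62 and 2.20 CPM. The groups overlapped, and a change was not detectable at this depth, since the log2 fold change of 0.52 ± 0.35 (SE) had a 95% interval of -0.24 to 1.28 (edgeR adjusted p = 0.40), and was 0.29 over all 6 libraries (edgeR adjusted p = 0.63).

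**Figure D2:**
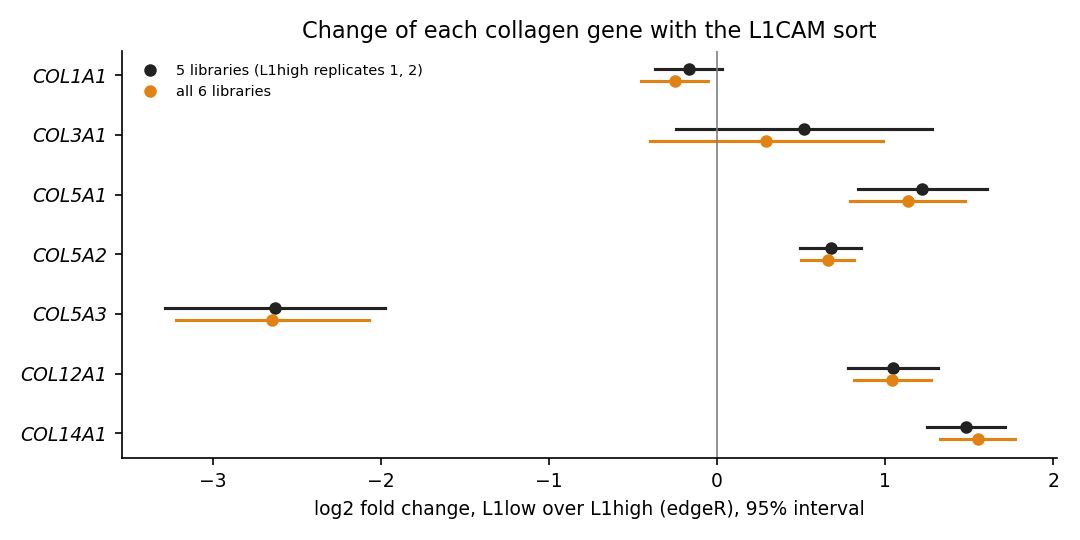
log2 fold change of L1low over L1high with its 95% interval for each gene, over 5 libraries (black) and all 6 (orange). The intervals of COL5A1, COL5A2, COL12A1 and COL14A1 lie above 0 and that of COL5A3 below 0 in both, while that of COL3A1 spans 0 in both and that of COL1A1 does so over 5 libraries.

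Levels can be compared between genes only per length, here as CPM per kilobase of merged exons. In L1high cells COL1A1 led with 22.4 ± 3.03 (SD, n = 3) and COL5A2 followed with 11.4 ± 0.767. The other genes were far lower, with COL14A1 at 1.28 ± 0.136, COL12A1 at 0.624 ± 0.0637, COL5A3 at 0.622 ± 0.138, COL5A1 at 0.486 ± 0.0591 and COL3A1 at 0.200 ± 0.0560. Levels of COL12A1 and COL5A3 did not differ beyond their spread, and neither did COL5A3 and COL5A1. In L1low cells COL1A1 at 18.8 ± 0.443 was almost matched by COL5A2 at 18.0 ± 0.440, followed by COL14A1 at 3.76 ± 0.152, COL12A1 at 1.29 ± 0.0156 and COL5A1 at 1.06 ± 0.177. COL5A3 went from the fifth place among the 7 to the last, with 0.0987 ± 0.00948, below COL3A1 at 0.243 ± 0.0816. The gap between COL1A1 and COL5A2 depends on the length used, since their ratio in L1low cells was 1.05 ± 0.0489 per merged exons and 1.49 ± 0.0694 per canonical transcript (SD, n = 3), but the order of the 7 genes was the same with either length in both populations. The authors' alignment did not place reads across splice junctions, and the part of exon length in the order of these levels was not tested.

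Summed per kilobase, the 7 genes reached 37.0 ± 3.96 in L1high and 43.2 ± 0.408 in L1low cells, a ratio of 1.17 (exact permutation test, two-sided p = 0.10, the smallest that 3 against 3 libraries allow). Without COL1A1 the sum was 14.6 ± 1.06 against 24.4 ± 0.183, a ratio of 1.67 (exact permutation p = 0.10). The share of COL1A1 in the sum went from 60.4 ± 2.07% to 43.5 ± 0.669%, and that of COL5A2 from 30.9 ± 1.60% to 41.6 ± 1.27%. COL14A1 went from 3.49 ± 0.586% to 8.68 ± 0.294%. COL1A1 held the largest share in both populations, and COL5A2 and COL14A1 held more in L1low cells.

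Within collagen V the mix of chains shifted away from α3(V). COL5A3 made up 5.69%, 4.19% and 4.94% of the summed collagen V transcripts per kilobase in the L1high libraries, and 0.466%, 0.523% and 0.558% in the L1low libraries. In L1high cells COL5A1 was present at 0.652, 0.880 and 0.860 transcripts per COL5A3 transcript per kilobase of merged exons. Per canonical transcript length the ratios were 0.789, 1.06 and 1.04, with a mean of 0.965 ± 0.152 (SD, n = 3). Thus the chain that was ahead in L1high replicates 2 and 3 depends on the length used. The mean stayed below 1 with either length. In L1low cells there were 12.0, 12.5 and 8.14 per merged exons, a change of the mean from 0.797 ± 0.126 to 10.9 ± 2.40 (SD, n = 3), and COL5A1 was ahead in every library with either length. These L1low ratios rest on 11, 12 and 13 reads of COL5A3. COL5A2 per COL5A1 was 24.4, 25.0 and 21.4 in L1high and 16.7, 14.2 and 20.9 in L1low cells, which came close to each other in L1high replicate 3 and L1low replicate 3 without overlapping.

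**Figure D3:**
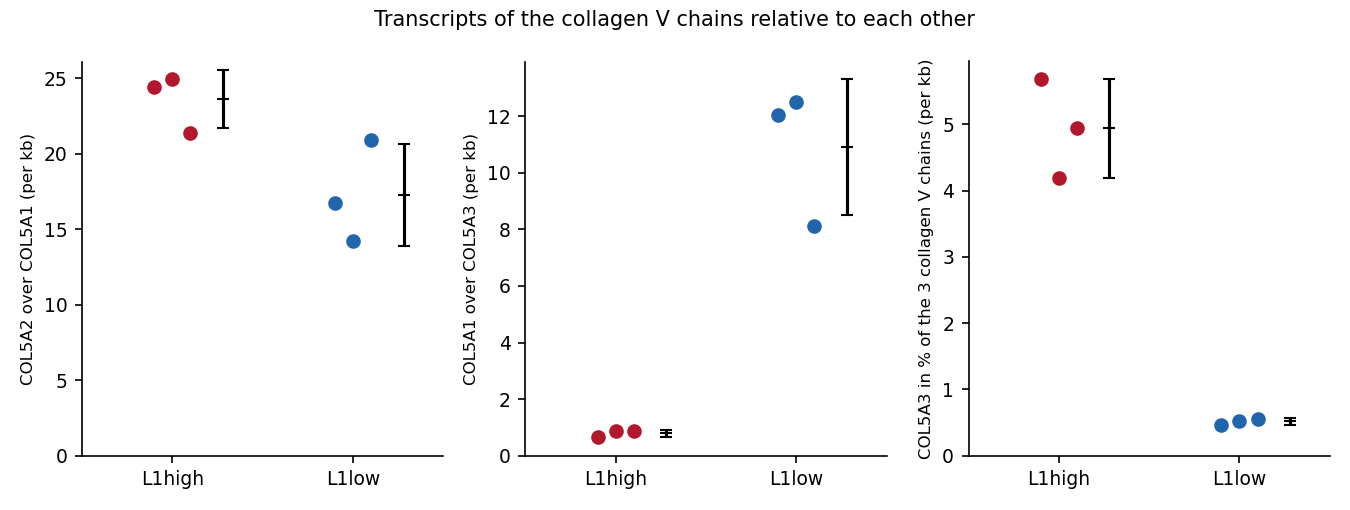
Ratios between the collagen V chains per kilobase in each library, with the mean ± SD (n = 3) to the right of the points. COL5A2 per COL5A1 is lower in L1low cells, COL5A1 per COL5A3, by merged exon length, goes from between 0.652 and 0.880 in the L1high libraries to between 8.14 and 12.5 in L1low, and the share of COL5A3 falls from between 4.19% and 5.69% to under 0.56%.

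Ratios of counts within a library do not depend on scaling, and 7 pairs were compared on the log2 scale. From L1high to L1low cells COL5A3 relative to COL5A1 changed by -3.76 and relative to COL5A2 by -3.30. COL1A1 changed by -1.37 relative to COL5A1 and by -1.29 relative to COL12A1. The ratio of COL14A1 to COL12A1 changed by 0.51, and that of COL5A2 to COL5A1 by -0.46. In these 6 pairs the libraries did not overlap, and each had an exact permutation p of 0.10, two-sided and the smallest possible (0.117 adjusted over the 7 pairs). COL3A1 relative to COL5A2 overlapped, with a difference of -0.40 (exact permutation p = 0.40).

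The region before the transcription start was available from RefSeq (GRCh38.p14) for COL5A1, COL5A3 and COL12A1. The 250 bases are shown for COL5A1 and COL5A3, chains of one collagen with opposite changes, while the COL12A1 window reaches into the annotated gene and is described only. They lie at chr9:134641553-134641802 on the plus strand and chr19:10010505-10010754 on the minus strand. Capitals mark the CCAAT box.
COL5A1 promoter: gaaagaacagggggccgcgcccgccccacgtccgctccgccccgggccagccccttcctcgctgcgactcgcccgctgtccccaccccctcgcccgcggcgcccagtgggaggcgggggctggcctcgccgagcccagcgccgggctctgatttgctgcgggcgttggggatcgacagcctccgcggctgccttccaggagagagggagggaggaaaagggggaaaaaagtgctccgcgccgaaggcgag
COL5A3 promoter: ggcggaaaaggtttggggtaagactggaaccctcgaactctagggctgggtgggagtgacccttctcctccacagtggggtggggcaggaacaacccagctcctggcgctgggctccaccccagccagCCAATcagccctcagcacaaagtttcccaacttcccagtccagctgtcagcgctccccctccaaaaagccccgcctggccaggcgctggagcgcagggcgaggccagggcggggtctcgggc
CCAAT was found on either strand in 32.0% of the 35116 RefSeq promoters of this length, and was matched in COL5A3, at bases -122 to -118 from the start, and not in COL5A1. The GC box GGGCGG, found on either strand in 42.6% of promoters, was matched 2 times in COL5A1, at -230 to -225 and -214 to -209. Both of these lie on the other strand. In COL5A3 it was matched on the gene's strand at -16 to -11. The GC boxes overlapped with no other motif. Neither of these held GGAATG, a TEAD motif (11.9% of promoters), TGACTCA or TGAGTCA, the AP-1 motif (4.20%), CAGAC, a SMAD motif (38.0%), or TATAAA, the TATA box (10.7%). The GC content was 74.0% in COL5A1 and 66.0% in COL5A3, against a median of 58.0%. The COL12A1 window, with a GC content of 61.2%, held GGAATG at -167 to -162 and the GC box on the other strand at -218 to -213, and none of the other motifs. These matches describe letters only.

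Fibrillar collagen needs enzymes and chaperones, whose genes were counted beside it. Over 5 libraries 4.41% of all genes were higher in L1low cells and 3.15% lower, with a median log2 fold change of 0.0016. For 18 genes for folding, hydroxylation and glycosylation of procollagen the median was 0.15. Among the 18, 4 were higher in L1low cells and none lower over 5 libraries. These were P4HA1, a prolyl hydroxylase subunit (0.36), PLOD1, a lysyl hydroxylase (0.35), SERPINH1, the collagen chaperone HSP47 (0.34), and P3H2, a prolyl 3-hydroxylase (0.43). Of the 7 genes with values among 11 for removal of the propeptides, none passed over 5 or 6 libraries, and BMP1, the C-proteinase, had 45.4 ± 1.57 CPM in L1high and 47.9 ± 1.59 CPM in L1low cells. Of 4 lysyl oxidases, which cross-link the fibril, LOXL2 rose from 33.2 ± 2.41 to 55.3 ± 2.05 CPM (log2 fold change 0.79), and LOX, at 50.7 ± 4.84 and 63.3 ± 6.46 CPM, did not pass the test.

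Genes for proteins on the fibril surface and for enzymes that cut collagen were higher where they passed. Of 6 surface and assembly genes with values among 20, THBS1 (log2 fold change 1.17), the proteoglycan LUM (0.74) and TNC (0.82) rose and none fell. Of 5 enzymes that cut collagen or gelatin with values among 7, the gelatinase MMP2 (1.56), MMP1 (1.47), MMP13 (0.95) and MMP14 (0.50) rose. CTSK did not pass. Of 5 collagen receptors with values among 11, ITGB1, the shared integrin subunit, rose (0.34) and ITGA1, a collagen-binding partner of it, fell from 53.6 ± 4.53 to 23.7 ± 3.38 CPM (log2 fold change -1.22). ITGA2, another such partner at a higher level, had 289 ± 12.0 against 238 ± 25.4 CPM (-0.31) and did not pass. All of these calls held over 5 and over 6 libraries. Of all genes, 4.41% were higher and 3.15% lower over 5 libraries, and 4.58% and 3.37% over 6.

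Other collagen genes were counted beside the 7 with no test of a difference between them. Of the 18 other collagens in the table, 8 were called higher over 5 libraries, against 4.41% of all genes, and 9 over 6, against 4.58%. None was called lower in either, against 3.15% and 3.37% of all genes. The median log2 fold change of the 18 was 0.57 over 5 libraries, against 0.0016 over all genes. COL27A1, the one other fibrillar collagen with values, rose from 28.7 ± 2.86 to 44.3 ± 3.12 CPM (0.65). The fibril-associated COL9A3 (2.64 ± 0.405 against 2.64 ± 0.373 CPM) and COL16A1 (3.44 ± 1.49 against 2.38 ± 0.579 CPM) did not pass. The other 5 fibrillar and 6 fibril-associated collagens had no row in the count table.

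Markers of other cell types were measured in the same libraries, where 4.41% of all genes were higher and 3.15% lower over 5 libraries. Of 13 fibroblast markers, 6 had values, and PDGFRA, PDGFRB, THY1, FAP, DCN, COL1A2 and COL6A3 had no row in the count table. LUM, which is also in the list of surface proteins, PDPN (1.16) and VIM (0.60) rose, and ACTA2, TAGLN and S100A4 did not pass. The summed CPM of the 6 was 470 to 492 in L1high and 732 to 741 in L1low libraries, of which VIM gave 370 ± 8.40 and 555 ± 9.33. Of 7 stellate cell and pericyte markers, 5 had values, and NGFR rose from 10.7 ± 1.44 to 34.8 ± 1.59 CPM while the others did not pass. Their sum was 26.3 to 27.7 in L1high and 49.3 to 54.6 in L1low libraries. The 7 ductal epithelial markers summed to between 4542 and 5151 CPM in L1high and between 5028 and 5414 CPM in L1low libraries. KRT19 was called higher and EPCAM lower over 5 and over 6 libraries, with log2 fold changes of 0.69 and -0.37 over 5. CLDN4 was called lower over all 6 libraries only (log2 fold change -0.35, edgeR adjusted p = 0.021). KRT7, KRT8, KRT18 and CDH1 did not pass in either. The part of these markers in the collagen values was not tested. In sorted bulk cells, fewer cells that express a gene cannot be told apart from less of its RNA per cell.

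The genes with the nearest pattern were sought by the root mean square distance of mean-centred log2 CPM over the 6 libraries among the 17022 genes that averaged a log2 CPM of 1 or more. COL14A1 was nearest to MMP2 (distance 0.083), which encodes a gelatinase, and TNS1 (0.104). COL12A1 was nearest to KIRREL1 (0.0556) and DKK3 (0.0565). COL5A1 was nearest to WNT3A (0.0890) and DOK7 (0.114), and COL5A2 to FST (0.0216), the activin antagonist follistatin, and MIR614 (0.0445). COL5A3 had no close neighbour among the genes compared, the nearest being the unnamed ENSG00000255446 at 0.284 and the sorting marker L1CAM at 0.289. COL5A3 and COL3A1 themselves averaged below a log2 CPM of 1, and other genes below it were not compared. COL1A1 was nearest to ADCY3 (0.0206) and TBC1D24 (0.0294), and COL3A1 to DUSP9 (0.101) and BMS1P4 (0.128). Among the members the nearest pair was COL5A1 and COL12A1 (0.162), followed by COL5A2 and COL12A1 (0.196) and COL12A1 and COL14A1 (0.276), and COL5A3 was at 1.11 or more from each of the others.

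**Figure D4:**
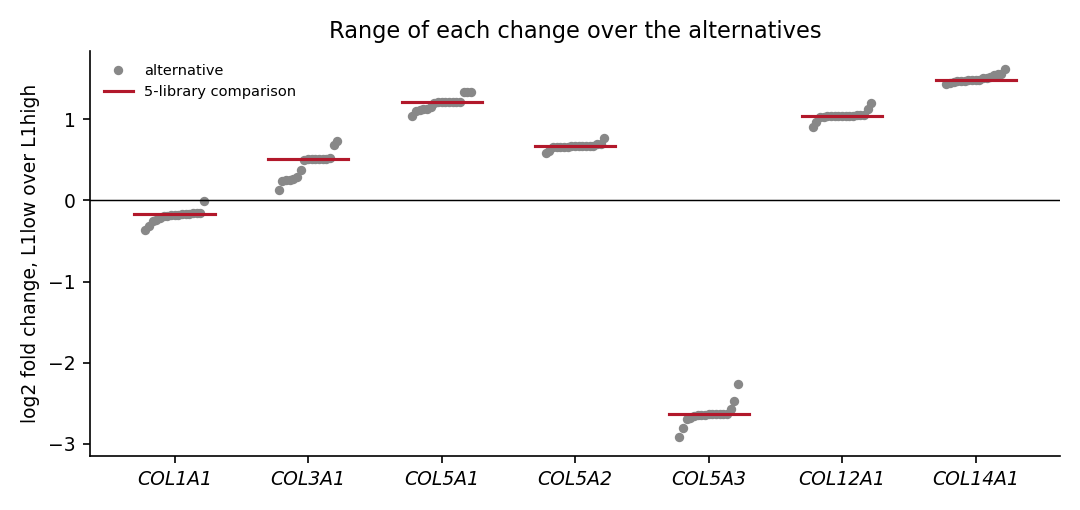
log2 fold change of L1low over L1high under the 17 alternatives (grey points) and in the 5-library comparison (red line). COL5A1, COL5A2, COL12A1 and COL14A1 stay above 0 and COL5A3 between -2.92 and -2.27, while COL1A1 runs from -0.36 to -0.0039 and COL3A1 from 0.13 to 0.74.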

How the data were processed

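RNA of FACS-sorted L1high and L1low L3.6pl cells was sequenced as stranded, paired-end mRNA libraries. The authors aligned trimmed reads to GRCh38 with BWA, which does not place reads across splice junctions, and used featureCounts to obtain counts for the genes of Ensembl release 94. These raw counts were deposited. The labels also name GRCh38.p13 and DESeq2. Versions, strand and multi-mapping options are not given in the sources used here. All 19469 deposited genes had over 1 CPM in 2 or more libraries. The total of 16334610 to 21064685 counts limits genes of low level most.

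Here, L1low and L1high were compared with edgeR 4.0.16 in R 4.3.3 (TMM factors, filterByExpr, quasi-likelihood test, Benjamini-Hochberg adjustment over all genes tested, calls under 0.05), over the study's own 5 libraries and over all 6. The fit was tested on simulated data. The standard error was the log2 fold change divided by the square root of F. CPM used TMM factors over all 6 libraries and log2 CPM a prior count of 2. Lengths, exons and symbols came from GENCODE 44 (19344 identifiers matched), and promoters from RefSeq. The alternatives included all 6 libraries, replicates left out or exchanged, the replicate block, DESeq2 1.42.0, the exact test of edgeR, other scalings and count filters. The canonical transcript length was chosen after seeing the data. No 2 libraries of a group were duplicates, as the closest pair had a chi-square per degree of freedom of 3.66.

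Members and lists were chosen with earlier results of these data known. Named genes were the members, the called genes of each list with the largest changes or smallest p, abundant markers, the 2 nearest patterns of each member and L1CAM. BMP1, LOX, CTSK, ITGA2, COL9A3, COL16A1, CLDN4 and the markers that did not pass were named after their values were seen. Columns of the authors' own comparisons were not used.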

Additional observations from a re-analysis of the deposited data

How the results depend on the processing

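The 4 rises and the fall of COL5A3 kept their direction and passed the test under all 17 alternatives of each, except that DESeq2 gave COL5A3 no adjusted p (log2 fold change -2.65, unadjusted p = 6.4e-10). The alternative with no filter on low counts repeats the 5-library comparison, because the filter removed no gene there. The log2 fold change ran from 1.44 to 1.62 in COL14A1, 0.91 to 1.20 in COL12A1, 1.04 to 1.34 in COL5A1, 0.58 to 0.77 in COL5A2 and -2.92 to -2.27 in COL5A3. COL3A1 passed under none of its alternatives (edgeR adjusted p from 0.22 to 0.87, and none given by DESeq2). COL1A1 passed where replicate 3 of L1high took the place of replicate 2 (-0.36) and in no other of its 17 alternatives. The ratio of COL1A1 to COL5A2 in L1low cells was 1.49 per canonical transcript length, and that of COL5A1 to COL5A3 in L1high cells was 0.965 by that length.

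The number of called genes was less stable than the members. The 5 libraries gave 1473 calls, 859 higher and 614 lower. With 1 replicate left out the counts ran from 389 to 1649 in all, 251 to 941 higher and 138 to 761 lower. The lone L1high library was then assumed to vary like the others. Without L1high replicate 2 the calls were 389, without L1low replicate 2 551 and without L1high replicate 1 877, and where replicate 3 of L1high took the place of replicate 1 they were 674 (425 higher, 249 lower). The exact test of edgeR called 932 lower. The cause was not tested. With the replicate block over all 6 libraries 2363 genes were called, 1143 of them lower, and the block changed no call of a member. Libraries of the same number had correlations of their deviations from the group means of 0.074, 0.091 and 0.208, not all above 0.1, so the numbers were not taken as pairs, although each library correlated best with its own number.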

Other observations

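L1high replicate 2 was the lowest of the 3 L1high libraries for 6 of the 7 genes, all but COL14A1. It was also the lowest for 14 of the 18 other collagens (77.8%) and for 7696 of all 19469 genes (39.5%). This pattern was noticed in the data and not tested.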
